A study of Mus musculus with 48 samples.

Results

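The colon of mice whose diet was switched at weaning in opposite directions was compared on 12 of the 48 arrays of the series, 6 labelled HL and 6 labelled LH. All were C57/BL6 mice, sampled at 12 weeks of age. The first letter is the diet of the dam through gestation and lactation and the second that of the pup from weaning onwards, with H labelled sufficient in selenium and folate and L deficient in both. The paper calls H supplemented and the deficiency of L marginal. HL mice therefore met diet L only after weaning, and LH mice only before it. Per the study's methods the diets were high in fat in both groups and the offspring were male, so the comparison holds for that background diet. Each array carried the RNA of 1 mouse, labelled with Cy3, against a common mouse reference RNA, labelled with Cy5, which the labels call multi-organ and the methods describe as a pool of intestinal and liver extracts. No dyes were swapped. Replicate numbers follow the slides: HL replicate 1 and LH replicate 1 shared a slide, and so on over 6 slides. The labels give no litters, so mice of 1 dam cannot be told apart from mice of different dams.

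Values are log2 ratios of mouse over reference, which set a gene in 1 mouse against the same gene in another and say nothing of 1 gene against another. A difference is the HL mean minus the LH mean from the limma fit with slide as a block, so a positive value means higher in HL. A probe was called at a fold change over 1.5 with a Benjamini-Hochberg adjusted p under 0.05. Genes of colon cell types were measurable: 27 of 28 absorptive colonocyte genes, 17 of 18 goblet cell genes and all 19 smooth muscle genes were well above background. So were 81.6% of all named genes and all 14 measured genes of pancreatic acinar cells. Of the colonocyte genes, 24 were well above background in liver too. Detection alone therefore does not identify the tissue. Cy3 signals of 66.8% to 73.7% of spots per colon array were above background. The array of HL replicate 3 correlated least with the others, with a median correlation of 0.918. HL replicate 5 stood apart in sex-linked genes. *Xist*, the RNA that silences one X chromosome in female cells, stood at a log2 ratio of 2.38 in this mouse and at -5.07 to -3.09 in the other 11, and the Y-linked *Eif2s3y* had -5.78 there and -0.69 to 0.19 in the others. This array goes against the description of the offspring as male, and values without it are given where it moved a result. *Xist* was also above a log2 Cy3 signal of 9, the cut for a *Xist*-positive array, in 2 of 6 HH and 3 of 6 LL colon arrays. These arrays enter the feeding-period terms below but not the HL and LH means. LL replicate 5 lay just over the cut at 9.743, and the other *Xist*-positive arrays, HL replicate 5 among them, at 11.95 to 13.46.

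Selenium acts in cells mainly as selenocysteine, which is built into a small family of selenoproteins, among them glutathione peroxidases and thioredoxin reductases, when a UGA codon is read through with the help of a structure in the mRNA. Folate carries the carbon units used to make purines and thymidylate and to return homocysteine to methionine, from which S-adenosylmethionine, the methyl donor for DNA, is made. The colon lining renews itself continually from dividing crypt cells, and so has a steady need for nucleotides.

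No probe was called between HL and LH (0 of 41171, 0%). The lowest adjusted p was 0.616 (limma). At an unadjusted p under 0.05 stood 2694 probes, 6.54% of those tested, of which 1135 were higher in HL (2.76%) and 1559 higher in LH (3.79%). Kept to 1 probe per gene, 15035 of 18434 named genes were well above background, and 1114 of these (7.41%) had an unadjusted p under 0.05, 430 higher in HL (2.86%) and 684 higher in LH (4.55%). The differences lay in a narrow range: 69% of the genes differed by less than 0.1 on the log2 scale, the median standard error was 0.0795, and for 97% of genes the 95% interval lay within a 1.5-fold difference in both directions. In simulated data of the same size, 48 of 50 probes changed by 0.7 on the log2 scale were called. Other probes were changed by 1, 1.5 and 2 in the same run, which eases the adjustment, and the noise was independent between probes. The share therefore does not carry over to these data. *Cidec*, for example, differed by 0.67 with a standard error of 0.55. The groups did not overlap for 5 genes higher in HL (0.0333%) and 8 higher in LH (0.0532%). Every gene-level value that follows is thus a measured difference that did not pass the adjusted test. The shares of 2.86% higher in HL and 4.55% higher in LH are the background for the HL against LH counts of list members below.

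The 12 genes higher in HL with the lowest p differed by 1.17-fold to 1.29-fold, and the 12 higher in LH by 1.14-fold to 1.38-fold. All 24 had an adjusted p of 0.616 (limma). The direction was the same on all 6 slides for 6 of the first 12 and for 10 of the second 12, where 2.03% of all genes were higher in HL on every slide and 3.66% higher in LH. As these genes were taken for their low p, the values are a description.

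*Dhx29* (chromosome 13, 112927680 to 112969432, GRCm38.p6), a helicase that helps ribosomes scan structured mRNA leaders, stood first among genes higher in HL. Its log2 ratios ran from -0.17 to 0.24 with a median of 0.15 in HL, and from -0.45 to -0.01 with a median of -0.19 in LH. The difference was 0.30 (95% interval 0.16 to 0.45, 6 mice per group), and HL exceeded LH on 6 of 6 slides although the groups overlapped. *Psma4*, a subunit of the proteasome core, ran from -0.67 to 0.01 in HL (median -0.23) and from -0.96 to -0.20 in LH (median -0.58). *Brpf3*, a scaffold of histone acetyltransferase complexes, ran from 0.45 to 0.96 in HL (median 0.80) and from -0.12 to 0.62 in LH (median 0.44). Their differences were 0.26 and 0.36, on 6 of 6 slides each. *Snrk*, an AMPK-related kinase, differed by 0.37, the widest of the 12, with HL higher on 5 of 6 slides.

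*Nup50*, a nuclear pore protein, was higher in HL by 0.31, *Sowahb* by 0.35, *Dusp16*, a phosphatase of the JNK pathway, by 0.27, and *Rpl7l1* by 0.23. *Clip2* and *Ap1g1*, the latter a subunit of the clathrin adaptor at the Golgi, were each higher by 0.23, and *Kbtbd4* by 0.26, on 6 of 6 slides in each case. *Opa1*, which fuses the inner mitochondrial membranes, was higher by 0.25, but of its 3 probes only the brightest, the one reported, had that sign.

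*Lin9* (chromosome 1, 180641150 to 180690687, GRCm38.p6), a core subunit of the DREAM and MuvB complexes that control cell cycle genes, had the lowest p of all named genes (2.91e-05, unadjusted; adjusted p = 0.616, limma). Its ratios ran from -0.46 to 0.05 in HL (median -0.10) and from -0.04 to 0.41 in LH (median 0.20), a difference of -0.33 (95% interval -0.45 to -0.20), with LH higher on 6 of 6 slides. *Lin52*, another subunit of the same complexes, was also among the 12, with ratios of -0.69 to -0.02 in HL (median -0.24), of -0.45 to 0.18 in LH (median -0.01) and a difference of -0.25 on 6 of 6 slides. These are genes for 2 subunits of 1 complex; no enrichment was tested.

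*Slc7a8* (chromosome 14, 54722215 to 54781886, GRCm38.p6), an exchanger of neutral amino acids, ran from -2.39 to -1.70 in HL (median -1.98) and from -1.94 to -1.41 in LH (median -1.72). The widest difference of the 12 was that of *Esm1*, a proteoglycan secreted by endothelial cells, with -1.04 to -0.34 in HL (median -0.63), -0.76 to 0.27 in LH (median -0.01) and a difference of -0.47. *Pcdh17*, a protocadherin, ran from 1.51 to 1.82 in HL (median 1.64) and from 1.82 to 2.16 in LH (median 1.98), so that the groups barely met. *St3gal6*, a sialyltransferase, was lower in HL by 0.38, on 6 of 6 slides. 

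*Cdkn2d*, the cyclin-dependent kinase inhibitor p19, was the only one of the 24 whose groups did not overlap. HL mice ran from -0.02 to 0.42 (median 0.29) and LH mice from 0.46 to 0.70 (median 0.50), with a difference of -0.28. *Mtf2*, a Polycomb-like protein, differed by -0.35 and *Tnrc6a*, which works with Argonaute in microRNA silencing, by -0.25, each with LH higher on 5 of 6 slides. *Lrch1* (-0.25), *Cwf19l2* (-0.30) and *Tbca* (-0.19), a tubulin folding cofactor, were lower in HL on all 6 slides. Of the 12 genes higher in LH, 3 had several probes, and for 2 of these all probes had the same sign. By the probe reported, all 24 genes kept their direction in every alternative processing tried, and the lowest adjusted p any of them reached was 0.154.

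**Figure D1:**
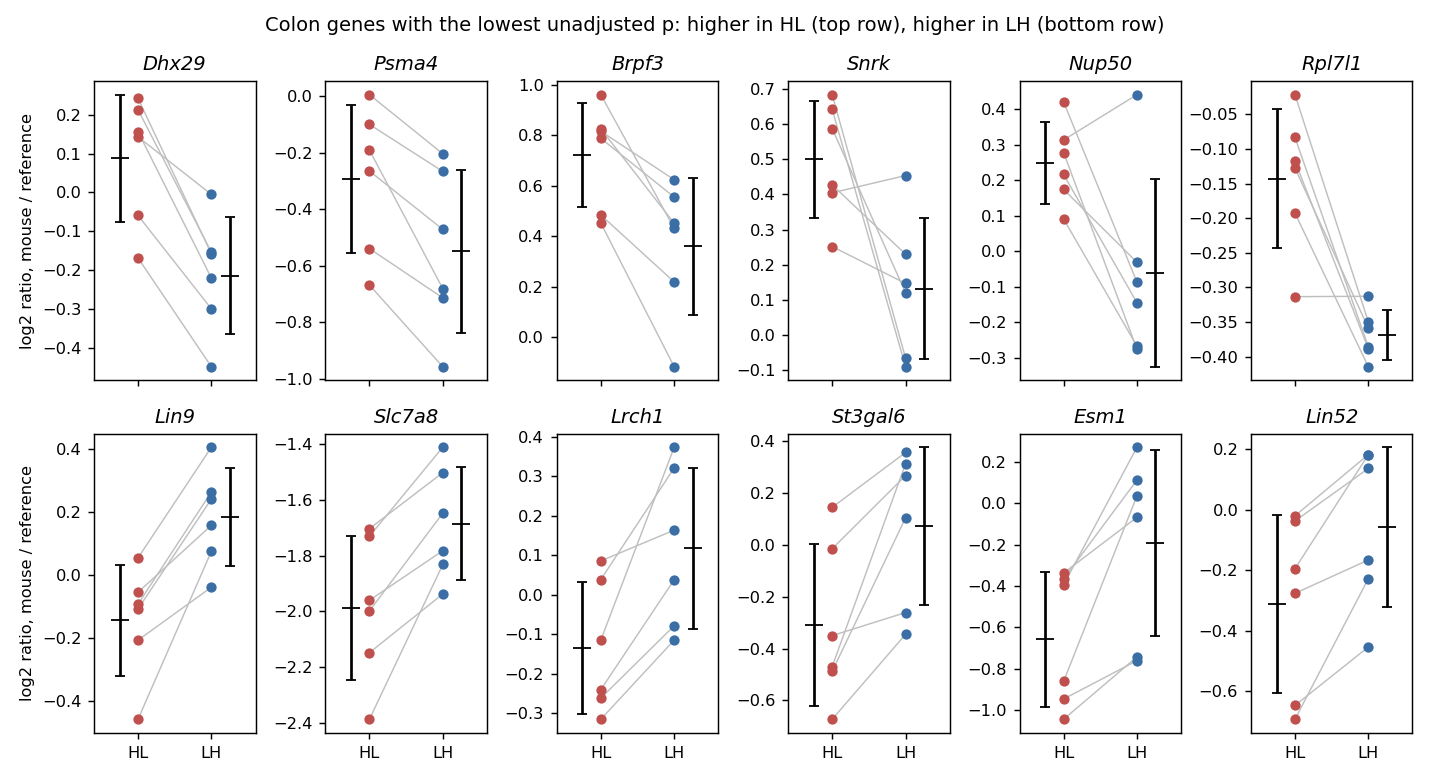
Log2 ratio of mouse over reference (y axis) in HL and LH colons for the 6 genes of lowest unadjusted p higher in HL (top row) and the 6 higher in LH (bottom row). Each point is 1 mouse, grey lines join the HL and LH mouse of 1 slide, and bars are the mean and SD of each group; nearly all lines run the same way, while the groups overlap in every panel.

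HL and LH differed in both feeding periods at once. With all 4 groups, the difference splits exactly into a dam diet term (H minus L, over HH, HL, LH and LL) and an offspring diet term (L minus H), whose sum is HL minus LH. At p under 0.05 stood 3030 probes (7.36%) for the dam diet and 2665 (6.47%) for the offspring diet, with none called and lowest adjusted p of 0.657 and 0.491 (limma). All 24 leading genes had both terms in the same direction, as genes taken for a large sum tend to have. *Lin9* split about evenly, with a dam term of -0.14 and an offspring term of -0.18, and so did *Rpl7l1*, with 0.12 and 0.11. *Dusp16* leaned on the dam diet (0.21 against 0.05), as did *Esm1* (-0.30 against -0.17). *Dhx29* leaned on the offspring diet (0.21 against 0.09), and *Tbca* almost wholly so (-0.17 against -0.02). The differences between the terms were not tested. Over the 15035 genes well above background, the dam term had 3.8% at p under 0.05 that were higher with H and 4.96% lower with H. The offspring term leaned to one side, with 1.91% higher with L and 4.91% lower with L. With the 6 *Xist*-positive arrays of HL, HH and LL left out, these shares were 4.74%, 5.77%, 2.96% and 5.07% in the same order. Among these arrays is HH replicate 1, which correlated by 0.8987 with the deposited values (sign turned), which lack background correction. All other colon arrays correlated by 0.9907 or more. The feeding-period terms are given with background correction only.

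**Figure D2:**
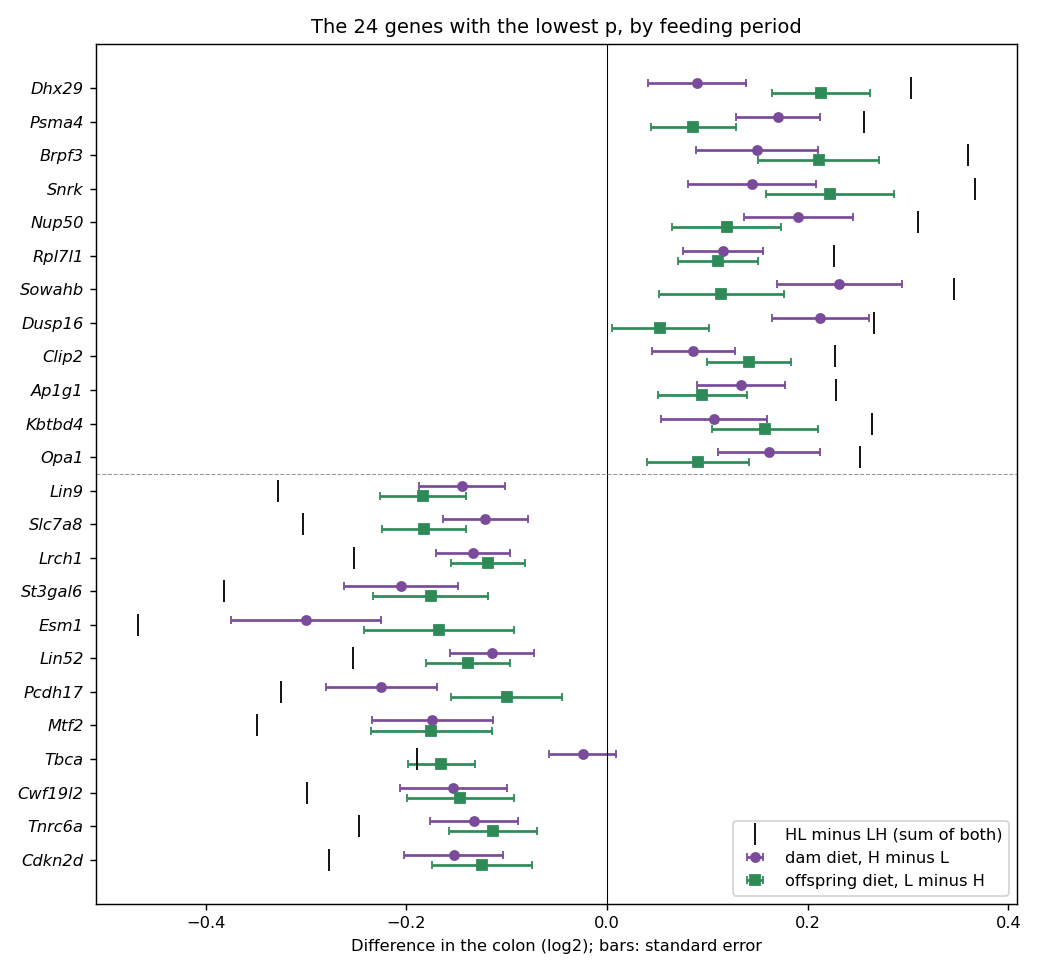
Dam diet term (H minus L, circles) and offspring diet term (L minus H, squares) of the 24 genes with the lowest p (y axis), on the log2 scale (x axis) with standard errors from the limma fit; ticks mark their sum, HL minus LH. *Tbca* has a dam term of -0.02 and *Dusp16* an offspring term of 0.05, and in most other genes both terms lie well to 1 side of 0.

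Selenoprotein mRNAs did not separate the groups. Of 24 selenoproteins, all well above background, 0 had an unadjusted p under 0.05, against 7.41% of all genes, and 12 were higher in HL and 12 in LH. Differences ran from -0.21 to 0.16. *Sephs2*, which makes the selenophosphate needed for selenocysteine and is itself a selenoprotein, was at the upper end with 0.16 (95% interval 0.00 to 0.32; adjusted p = 0.768, limma). *Selenop*, the secreted carrier of selenium, was at the lower end: HL mice ran from -1.28 to -0.87 (median -1.05) and LH mice from -1.20 to -0.65 (median -0.79), with LH higher on 6 of 6 slides and a difference of -0.21 (95% interval -0.43 to 0.00). Its offspring diet term was -0.25 and its dam diet term 0.04. *Gpx1*, the cytosolic glutathione peroxidase whose mRNA is known to fall in selenium shortage, ran from -2.29 to -1.97 in HL and from -2.29 to -2.11 in LH, a difference of 0.09 (95% interval -0.05 to 0.23). *Gpx2*, the peroxidase of the gut epithelium, also differed by 0.09 and *Txnrd1*, a thioredoxin reductase, by 0.15. By feeding period, 4 members were at p under 0.05 in the dam term, all higher with H (3.8% of all genes), and 5 in the offspring term, all lower with L (4.91% of all genes). The list medians of these terms were 0.03 and -0.04. Without the *Xist*-positive arrays the counts were 1 and 3.

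Among 12 genes for making and inserting selenocysteine, 2 were higher in HL and 1 in LH at an unadjusted p under 0.05. Of all genes 2.86% and 4.55% were. *Lrp8*, a receptor that takes up the selenium carrier, was 1 of the 5 genes whose HL mice lay wholly above the LH mice, from -0.21 to -0.12 (median -0.16) against -0.63 to -0.22 (median -0.23), with a difference of 0.15 (adjusted p = 0.73, limma). *Secisbp2*, the protein that binds the selenocysteine insertion element, was higher by 0.13 on 6 of 6 slides. *Trnau1ap*, which binds the selenocysteine tRNA, was lower by 0.11 on 6 of 6 slides; its sign turned to 0.03 under median centring.

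Folate cycle genes were spread evenly over both directions. Of 24 members, 12 were higher in HL and 12 in LH, and 1 on each side had an unadjusted p under 0.05. *Gart*, which catalyses folate-dependent steps of purine synthesis, ran from 0.19 to 0.53 in HL (median 0.33) and from -0.18 to 0.44 in LH (median 0.17), a difference of 0.23 (95% interval 0.07 to 0.38; adjusted p = 0.616, limma) on 6 of 6 slides. The folate transporters *Slc19a1* and *Slc46a1* differed by 0.09 and -0.07, both with intervals that included 0.

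In the methionine cycle 2 of 17 members were higher in HL and 1 in LH at p under 0.05. *Mat2a*, which makes S-adenosylmethionine, ran from -0.19 to 0.44 in HL (median 0.18) and from -0.34 to 0.32 in LH (median -0.17), a difference of 0.28 (adjusted p = 0.737, limma), while *Mat2b*, its regulatory subunit, differed by -0.10. *Ahcyl2* was higher by 0.24. Of 13 genes for DNA methylation and demethylation 0 had p under 0.05; *Dnmt1*, the maintenance methyltransferase, differed by 0.11 and the dioxygenase *Tet3* by -0.15.

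Genes of the surface epithelium lay mostly on the HL side. Of 27 colonocyte genes 22 were higher in HL, where 6738 of all 15035 genes were, and the list median was 0.09 against -0.01 for all genes. At an unadjusted p under 0.05, 3 were higher in HL and 0 in LH, where 2.86% and 4.55% of all genes were. *Slc26a3*, the chloride and bicarbonate exchanger of the surface cells, ran from -0.72 to 0.28 in HL (median -0.24) and from -1.24 to 0.03 in LH (median -0.84). Its difference of 0.49 (1.41-fold, 95% interval 0.09 to 0.89; adjusted p = 0.675, limma) had 1 sign on 6 of 6 slides. *Cdh17*, the intestinal cadherin, was higher by 0.32 and *Cdhr5*, a protocadherin of the brush border, by 0.20. With 1 mouse left out the count of 3 became 0 (without LH replicate 3) to 6, without the slide block it was 1, and under median centring 9.

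The goblet cell list held 2 of 17 members at p under 0.05, both higher in HL, where 2.86% of all genes were. *Spdef*, a transcription factor of goblet cell maturation, ran from 1.75 to 2.30 in HL (median 2.19) and from 1.43 to 2.60 in LH (median 1.66), a difference of 0.32. *Muc13*, a membrane mucin, was higher by 0.26. *Muc2*, the main secreted mucin, did not follow: it ran from 1.12 to 1.66 in HL and from 1.13 to 1.62 in LH, a difference of 0.00 (95% interval -0.19 to 0.19). The list median was 0.02. The count of 2 became 0 without HL replicate 4, without LH replicate 1 or without the slide block.

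Fatty acid oxidation genes leaned the same way, with 18 of 23 higher in HL and a median of 0.13. At p under 0.05 stood 4 members, all higher in HL, where 2.86% of all genes were. *Cpt1a*, which admits long-chain fatty acids into mitochondria, ran from -0.13 to 0.29 in HL (median 0.09) and from -0.38 to 0.08 in LH (median -0.01), a difference of 0.19 (95% interval 0.05 to 0.32; adjusted p = 0.627, limma) on 6 of 6 slides. *Hadha*, the alpha subunit of the trifunctional protein, was higher by 0.25, and *Acot2*, a mitochondrial thioesterase, by 0.23, both on 6 of 6 slides. With 1 mouse left out the count of 4 became 1 (without HL replicate 3) to 6, and it was 2 without HL replicate 5 or LH replicate 3, 0 without the slide block and 9 under median centring. Mitochondrial protein import had 21 of 25 members higher in HL with a median of 0.07 and 2 at p under 0.05, *Tomm40*, the outer membrane channel, by 0.17 and *Hspa9*, the matrix motor chaperone, by 0.16. The study names this pathway for its colon comparison of HH with LH, which shares the LH arrays, so the list is not independent evidence. The count of 2 became 0 without HL replicate 3, without the slide block or without the *Xist*-positive arrays, 4 without LH replicate 4 and 11 under median centring. Complex I of the respiratory chain had 24 of 32 higher in HL and 1 at p under 0.05, with a median of 0.03. That count became 0 without LH replicate 1 or LH replicate 3 and 6 under median centring, and the median was 0.00692 without LH replicate 1. In the dam term, where 3.8% of all genes were higher with H, 8 of 25 import genes, 9 of 32 complex I genes and 1 of 23 fatty acid oxidation genes were, and 0 were lower. In the offspring term 0 import genes, 3 complex I genes (all lower with L) and 2 oxidation genes (both higher with L) were at p under 0.05. Without the *Xist*-positive arrays the dam counts were 5, 9 and 0.

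**Figure D3:**
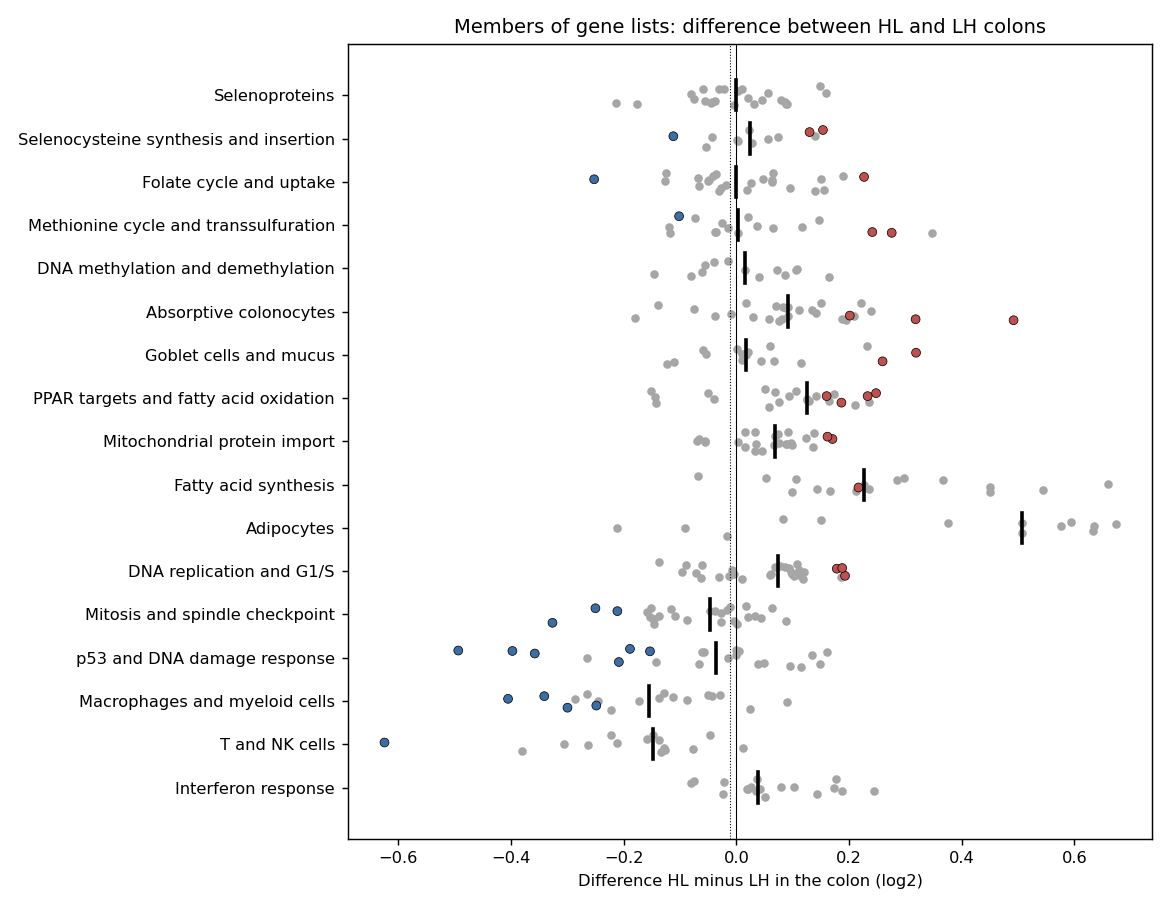
Difference HL minus LH (log2, x axis) of each member well above background in 17 gene lists (y axis); each point is 1 gene, black bars are list medians, the dotted line is the median of all genes, and members with an unadjusted p under 0.05 are coloured (red higher in HL, blue higher in LH). Colonocyte, fatty acid synthesis and oxidation genes lie mainly right of 0, macrophage and T cell genes mainly left of it, and selenoprotein and folate genes on both sides.

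Macrophage genes lay on the LH side. Of 18 members well above background, 2 were higher in HL and 16 in LH, with a median of -0.16. At an unadjusted p under 0.05 stood 4, all higher in LH, where 4.55% of all genes were. *Adgre1*, which encodes a surface antigen used to identify mouse macrophages, ran from 0.54 to 0.83 in HL (median 0.77) and from 0.79 to 1.35 in LH (median 1.21), a difference of -0.41 (1.32-fold, 95% interval -0.64 to -0.17; adjusted p = 0.616, limma). *C1qc*, a chain of complement C1q made by tissue macrophages, ran from 0.59 to 1.20 in HL (median 1.09) and from 1.101 to 1.52 in LH (median 1.22), a difference of -0.25 with LH higher on 6 of 6 slides. *Ms4a7* was lower in HL by 0.30 and *Aif1*, the antigen Iba1, by 0.34. In the dam term 8 of 18 members were at p under 0.05, all lower with H, where 4.96% of all genes were, and in the offspring term 0. Without the *Xist*-positive arrays these counts were 7 and 0. For HL against LH the count of 4 then fell to 1, with a list median of -0.16. In bulk RNA, fewer cells of a type and less RNA per cell cannot be told apart. With 1 mouse left out the count of 4 became 2 (without HL replicate 5 or LH replicate 5) to 8 (without HL replicate 1 or LH replicate 1), it was 2 without the slide block, and it was 0 under median centring, a scaling that raised the median of all genes from -0.01 to 0.09; the list median relative to all genes was -0.14 in the loess fit and -0.13 under median centring.

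T and NK cell genes had a similar median, -0.15, with 14 of 15 lower in HL, but only *Ccl5*, a chemokine of activated T cells, reached p under 0.05. It ran from -0.40 to 1.19 in HL (median 0.85) and from 0.83 to 1.82 in LH (median 1.28), a difference of -0.63 (1.54-fold; adjusted p = 0.7, limma); the lowest value was that of HL replicate 5, without which the difference was -0.43 and no gene of the list had p under 0.05. Some myeloid genes outside the lists, named here after their values were seen, had wider differences. *Ccl8*, a chemokine made by resident macrophages, ran from -0.47 to 0.73 in HL (median 0.20) and from 0.39 to 1.74 in LH (median 1.15), a difference of -0.87 (1.83-fold, 95% interval -1.47 to -0.27) with LH higher on 6 of 6 slides. *Trem2*, a lipid-sensing receptor of macrophages, ran from -1.31 to -0.65 in HL and from -0.73 to -0.35 in LH, a difference of -0.46 on 6 of 6 slides, and the inhibitory receptor *Pirb* differed by -0.48. Their adjusted p was 0.616 for *Ccl8* and *Trem2*. B and plasma cells (0 of 14 at p under 0.05) and mast cells and eosinophils (0 of 8) showed no such member.

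Markers of nerve and muscle lay slightly on the LH side. Of 19 genes of enteric neurons and glia, 17 were higher in LH with a median of -0.10 and 0 at p under 0.05; the median was -0.043 without LH replicate 1 and -0.03 under median centring. Smooth muscle had 14 of 19 higher in LH and 1 at p under 0.05, *Synpo2*, a Z-disc protein, by 0.20, and its median of -0.05 turned to 0.05 under median centring. Enteroendocrine cells (0 of 18, median -0.07), tuft cells (0 of 11, -0.06), fibroblasts (0 of 17, 0.00), and crypt stem cell and Wnt target genes (0 of 18, -0.03) had no member at p under 0.05. HL replicate 3, the array least like the others, had the lowest score of the HL group for macrophages (-0.29) and for neurons (-0.26) and the highest for colonocytes (0.27), a score being the mean of a list's log2 ratios, each centred on its own mean over the 12 mice. Without this mouse the counts at p under 0.05 were 3 for macrophages and 3 for colonocytes.

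Several genes of DNA damage signalling were lower in HL. The study names DNA damage and cell cycle pathways for its colon comparison of HH with LH, which shares the LH arrays, so these lists are not independent evidence. Of 22 genes of the p53 and damage response list, 6 had an unadjusted p under 0.05, all lower in HL (6 of 22, where the background for that direction was 4.55%). *Trp53inp1*, a p53 target that promotes cell death and autophagy, ran from 0.09 to 1.04 in HL (median 0.81) and from 0.86 to 1.40 in LH (median 1.04), a difference of -0.36 (95% interval -0.57 to -0.15; adjusted p = 0.616, limma) on 6 of 6 slides. *Gadd45b*, a stress-induced gene, ran from -0.59 to 0.46 in HL (median -0.22) and from -0.42 to 0.70 in LH (median 0.36), a difference of -0.40 on 6 of 6 slides. *Bbc3*, the pro-apoptotic Puma, ran from 0.05 to 0.86 in HL (median 0.52) and from 0.06 to 1.44 in LH (median 1.07), a difference of -0.49.

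*Sesn1*, a stress-induced regulator of mTORC1, differed by -0.21, *Brca2* by -0.19 and the damage kinase *Atm* by -0.15. For 3 other p53 targets of the list the difference had the other sign or lay near 0. *Cdkn1a*, the p21 inhibitor, was higher in HL on 6 of 6 slides by 0.15 (95% interval -0.11 to 0.41), *Mdm2* differed by -0.07 and *Bax* by 0.00. The list's score was higher in LH on 6 of 6 slides, while its median was only -0.04 and 8 of 22 members were higher in HL. Leaving out 1 mouse in turn left 4 to 7 members lower in HL at p under 0.05. Under median centring 2 were lower and 2 higher.

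The cell cycle lists pointed in different directions. Of 30 genes of DNA replication and the G1/S step, 19 were higher in HL with a median of 0.07. At p under 0.05 stood 3, all higher in HL, where 2.86% of all genes were. The count of 3 became 0 without HL replicate 3, without LH replicate 6 or without the slide block, 1 without LH replicate 3, and 5 without HL replicate 4 or under median centring. Of 27 genes of mitosis and the spindle checkpoint, 20 were lower in HL with a median of -0.05. At p under 0.05 stood 3, all lower in HL, where 4.55% of all genes were. *Cenpe*, the kinetochore motor, ran from -1.26 to -0.28 in HL (median -0.83) and from -0.67 to -0.30 in LH (median -0.50), a difference of -0.33. *Cenpf* was lower by 0.25 and *Cdc20*, the activator of the anaphase complex, by 0.21. By feeding period the mitosis list had 13 of 27 members at p under 0.05 in the offspring term, all lower with L, where 4.91% of all genes were, and 2 in the dam term, both higher with H. Without the *Xist*-positive arrays these counts were 7 and 1. The mitosis count of 3 for HL against LH became 1 without any one of HL replicates 1, 2, 3 and 5 and LH replicates 5 and 6, 1 without the slide block and 4 without HL replicate 6. Under median centring it was 0 and the list median turned to 0.03.

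Several programmes varied far more between mice than between groups. Fat cell genes had the widest list median, 0.51 higher in HL, with 10 of 13 members higher and yet 0 at p under 0.05. *Adipoq*, which encodes adiponectin, ran from 1.12 to 3.33 in HL (median 2.70) and from -1.45 to 2.89 in LH (median 2.42), a range of 4.79 over the 12 mice, and its difference of 0.63 had a 95% interval of -0.65 to 1.92. *Cidec* (0.67), *Plin1* (0.63), both lipid droplet proteins, and *Cfd* (0.59), complement factor D, went with it, each higher in HL on 4 of 6 slides. The score over the list was lowest in LH replicate 2 (-1.74), with HL replicate 6 next (-0.77), and highest in HL replicate 5 (0.72). Without LH replicate 2 the list median was 0.06.

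Fatty acid synthesis genes followed with a median of 0.23 and 16 of 17 higher in HL, of which only *Elovl6*, an elongase, had p under 0.05, by 0.22. *Scd1*, the stearoyl-CoA desaturase, ran from -0.95 to 1.12 in HL and from -2.82 to 0.67 in LH, where the lowest value was again that of LH replicate 2, and its difference of 0.66 had an interval of -0.38 to 1.70. *Fasn*, fatty acid synthase, differed by 0.37 (95% interval -0.22 to 0.95). The score of this list was lowest in LH replicate 2 (-0.51) and highest in HL replicate 5 (0.63), the same mice as at the ends of the fat cell score; without LH replicate 2 its median was 0.24. How much of the lipid gene values came with fat cells in the sampled tissue was not tested.

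Interferon response genes spanned a range of 1.67 in their score, from HL replicate 5 (-1.01) to LH replicate 5 (0.65), with LH replicate 4 (-0.67) and LH replicate 2 (-0.61) also low. *Isg15*, a ubiquitin-like protein, ran from -3.50 to -0.44 in HL (median -1.24) and from -2.47 to -0.87 in LH (median -1.72), and *Ifit1*, an RNA-binding effector, had a range of 2.71. Of 18 members 14 were higher in HL, the median was 0.04 and 0 had p under 0.05. Without HL replicate 5 the median was 0.26, and with all 6 *Xist*-positive colon arrays left out it was 0.42 and 4 members had p under 0.05.

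Interferon-induced genes are known for a shared promoter element, and the stretches holding it are shown for 2 members that varied widely between mice. The interferon-stimulated response element, searched as GAAA, any 2 bases and GAAA on both strands in the 250 bases before the start of each gene, was found in 9 of the 15 members with a RefSeq promoter (GRCm38.p6) and in 936 of 27025 genes (3.46%). Capitals mark the matches, of which *Isg15* holds 3 that overlap and so form 1 run, and which read as TTTC on both sides of 2 bases where they lie on the other strand. A match is a string of letters and was not tested as a binding site.
Ifit1, chr19:34640770-34640828, plus strand: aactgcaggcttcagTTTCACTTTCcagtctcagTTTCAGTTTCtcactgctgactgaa
Isg15, chr4:156200860-156200911, minus strand: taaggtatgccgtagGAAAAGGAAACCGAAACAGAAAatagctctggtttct

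Clock genes put mice of both groups at both ends of their range. *Dbp*, a transcription factor driven by the clock, ran from 0.21 to 2.44 in HL (median 1.31) and from -0.22 to 2.06 in LH (median 1.64). HL replicate 4 (2.44) and LH replicate 3 (2.06) were highest and HL replicate 6 (0.21) and LH replicate 1 (-0.22) lowest. *Arntl*, which encodes the clock activator BMAL1 and peaks at the opposite time of day, had the reverse order at its ends: HL replicate 4 (-1.33) and LH replicate 3 (-1.34) were lowest, HL replicate 6 (0.13) and LH replicate 1 (-0.10) highest. Between the groups *Dbp* differed by 0.13 (95% interval -0.73 to 0.99) and *Arntl* by 0.08, and 0 of 11 genes of the *Dbp* phase and 0 of 6 of the *Arntl* phase had p under 0.05. Time of killing was not used here.

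The E-box through which BMAL1 and CLOCK act, searched as CACGTG, which reads the same on both strands, in the same 250 bases, was found in 4 of 10 *Dbp*-phase members with a promoter and in 1854 of 27025 genes (6.86%). *Ciart*, a repressor of the clock, holds 3 matches and ranged over 2.07 between mice, and *Per1*, a core clock repressor, holds 1 and ranged over 1.71. These 2 are shown with the matches in capitals.
Ciart, chr3:95882252-95882359, minus strand: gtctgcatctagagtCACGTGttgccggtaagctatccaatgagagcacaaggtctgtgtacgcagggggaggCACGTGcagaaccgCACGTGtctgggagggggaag
Per1, chr11:69098768-69098803, plus strand: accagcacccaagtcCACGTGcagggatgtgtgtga

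**Figure D4:**
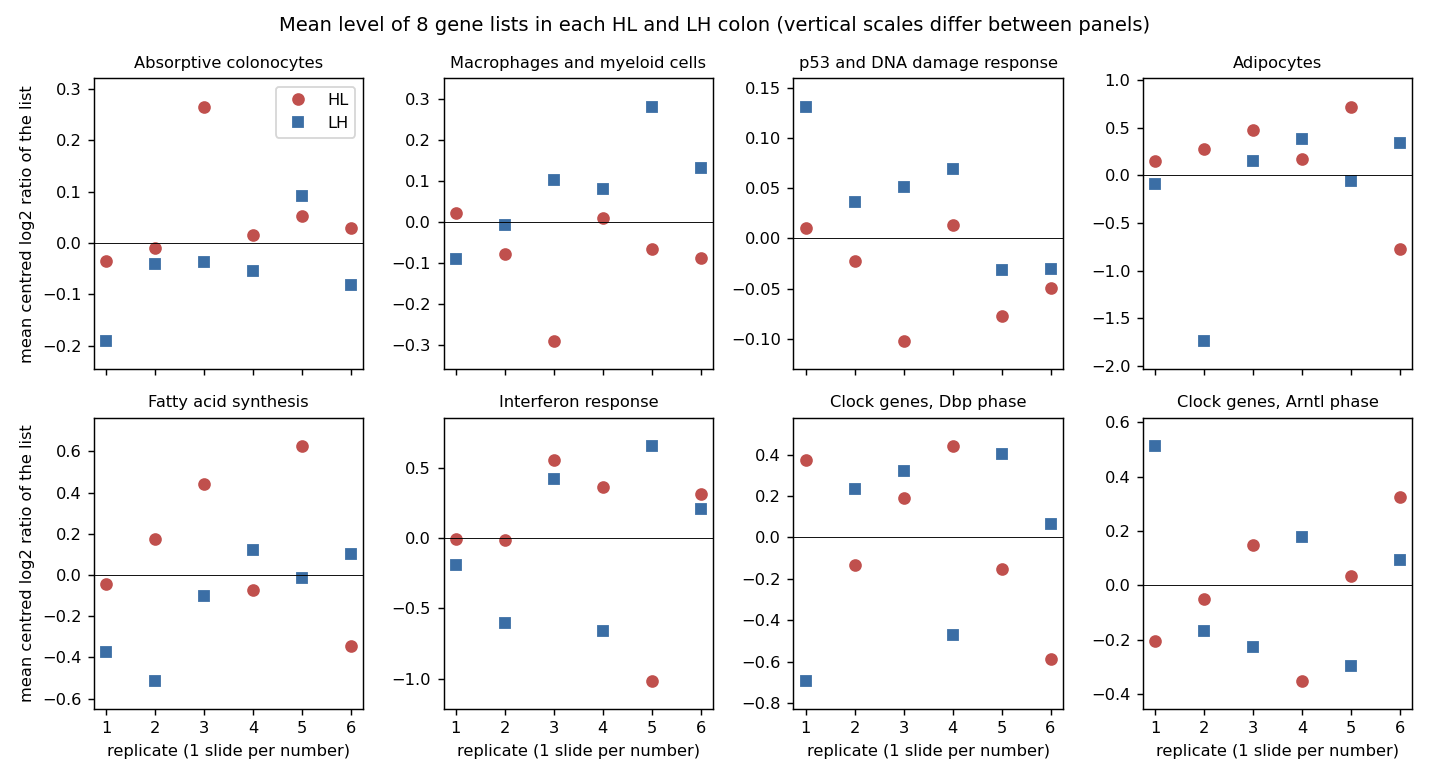
Score of 8 gene lists (mean log2 ratio of the members, each centred on its mean over the 12 mice; y axis, with scales that differ between panels) by replicate number (x axis, 1 slide per number) in HL (circles) and LH (squares); each point is 1 mouse. Fat cell, interferon and clock scores vary widely in both groups, while the p53 score is higher in LH at all 6 replicate numbers.

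Stress and detoxification lists held few members beyond the background. ER chaperones and the unfolded protein response had 2 of 23 at p under 0.05, both higher in HL: *Dnajc3*, a chaperone that restrains the kinase PERK, by 0.29 on 6 of 6 slides and the disulfide isomerase *P4hb* by 0.24. Nrf2 targets and glutathione genes had 2 of 24, *Gclc*, the rate-limiting enzyme of glutathione synthesis, and *Nfe2l2*, Nrf2 itself, both higher in HL by 0.18. Xenobiotic metabolism had 2 of 24, the exporter *Abcg2* by 0.31 and *Ahrr*, the repressor of the aryl hydrocarbon receptor, by 0.53; *Ahrr* ran from -0.37 to 1.62 in HL and from -0.49 to 0.15 in LH. With 1 mouse left out these counts of members higher in HL ran from 1 to 4, 0 to 5 and 0 to 4.

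Cytosolic heat shock (0 of 16), cholesterol synthesis (0 of 20), zinc transport and metallothioneins (0 of 14), posterior Hox genes (0 of 14), imprinted growth genes (0 of 14), small intestine and Paneth cells (0 of 13) and pancreatic acinar cells (0 of 14) had no member at p under 0.05. Over all lists, 45 of 698 members well above background did (6.45%), close to the 7.41% of all genes. The study names 7 genes in its results for liver, comparing HH with LH, which is another tissue and another pair of groups. In colon HL against LH they differed little: *Rpl41* by -0.12, *Rps19* by -0.17, *Pfdn1* by -0.11, *Hsp90b1* by 0.11, *Xbp1* by 0.18, *Gpx4* by 0.09 and *Ndufb4* by 0.07, none with p under 0.05; *Pfdn1* turned to 0.03 under median centring and *Rps19* to 0.00 without LH replicate 3. Of 5 sex-linked genes 0 had p under 0.05; *Eif2s3y* differed by -0.92 and *Xist* by 0.46, values set by HL replicate 5, without which they were 0.02 and -0.36.

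The same 2 groups in liver offered a comparison of tissues. In liver 6598 probes (16%) had an unadjusted p under 0.05 and 0 were called. Over 41167 probes, 0 were called for the difference between colon and liver (0%), 5292 had an unadjusted p under 0.05 (12.9%), and the lowest adjusted p was 0.0928 (limma). Without background correction 3539 probes had p under 0.05, and without the slide block 3137, with lowest adjusted p of 0.527 and 0.637 (limma). Liver HL replicates 5 and 6 correlated by 0.9048 and 0.8625 with the deposited values (sign turned), which lack background correction. The other liver HL and LH arrays correlated by 0.9963 or more. The liver values that follow come from background-corrected data alone. Of 13231 genes well above background in both tissues, 1263 had p under 0.05 for the tissue difference and were lower in colon. Another 862 were higher in colon. These are the background for the list counts of the tissue difference below. Macrophage genes lay in opposite directions: of 17 members well above background in both tissues, 1 was higher in HL in colon (median -0.17) and 17 in liver (median 0.23), and for 5 the difference between tissues had p under 0.05, all lower in colon, with a lowest adjusted p of 0.264. T and NK cell genes had medians of -0.14 in colon and 0.35 in liver, with 8 of 14 at p under 0.05. Mitosis genes had medians of -0.11 and 0.45, with 7 of 19. ER chaperones had 0.04 in colon and -0.30 in liver, with 8 of 23 in the other direction, and fatty acid oxidation 0.12 and -0.16, with 6 of 22. Pancreatic acinar genes, markers of a cell type foreign to both tissues, had a median of 1.06 in liver and -0.06 in colon, with 10 of 14; their part in the liver values was not tested.

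All 12 leading genes higher in LH in colon had the opposite sign in liver, and 9 of the 12 higher in HL did. Since a low p in colon chose them, this is a description. *St3gal6* was the widest, at -0.38 in colon and 0.81 in liver. The lowest p for the tissue difference among named genes belonged to *Mettl8*, a methyltransferase (0.15 in colon, -0.47 in liver), *Hsd3b6*, a steroid dehydrogenase, and *Pccb*, a subunit of propionyl-CoA carboxylase, on one side, and to *Cd93*, an endothelial and myeloid receptor (-0.30 in colon, 0.38 in liver), *Pip4k2a* and *Zeb2* on the other. Their adjusted p was 0.173 (limma) and none was called.

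**Figure D5:**
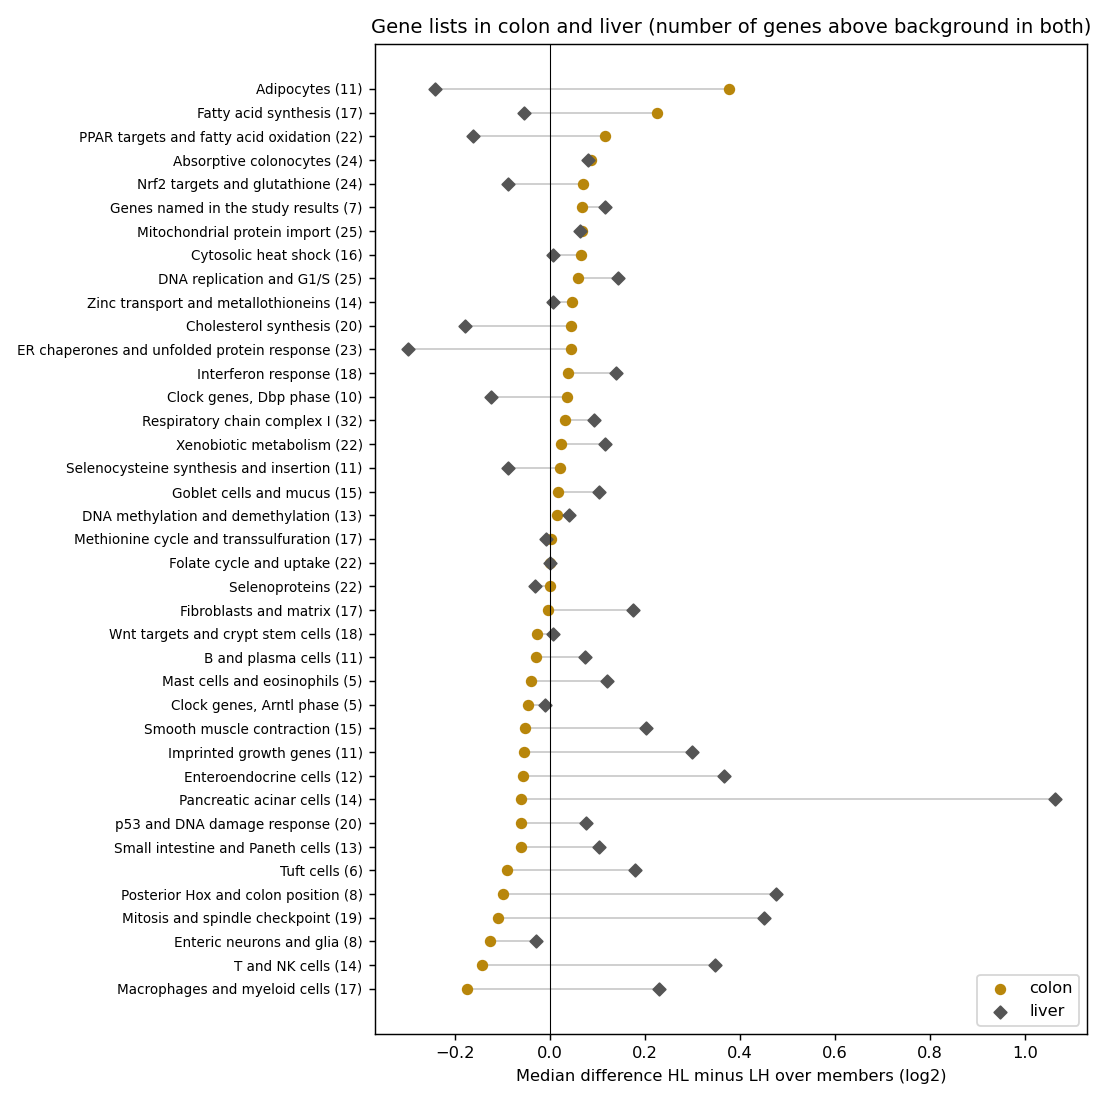
Median difference HL minus LH (log2, x axis) of each gene list (y axis) in colon (circles) and liver (diamonds), over the members well above background in both tissues, whose number stands in parentheses. Macrophage, T cell, mitosis and pancreatic genes lie left of 0 in colon and right of it in liver, and ER chaperone, fatty acid oxidation and fat cell genes the other way round.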

How the data were processed

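Colon and liver RNA was hybridised to Agilent 2-colour arrays, mouse RNA in Cy3 and reference RNA in Cy5. The scanner output the authors deposited holds intensity values per spot from Feature Extraction (10.10.1.1 per the file headers). The table of log2 ratios the authors deposited was made with limma in R 3.0.2 per the submitters' notes. Set against the scanner values it holds log2 reference over mouse without background correction, so its sign was turned and it served as an alternative.

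Intensities were corrected with normexp (offset 50), normalised by global loess within arrays and averaged per probe, leaving out control and outlier spots (limma 3.58.1, R 4.3.3). Gene names were taken by matching the accession that the array files give for each probe to RefSeq, which named 27050 of 41174 probes. Probes without a match do not enter the gene-level results. The 24 colon arrays were fitted together with 4 groups and slide as a fixed block (15 residual degrees of freedom), with Benjamini-Hochberg adjustment over 41171 probes. Slide numbers come from the labels, and each slide held 1 mouse per group. Deviations of HL and LH mice of 1 slide correlated by 0.202 to 0.598. The highest correlation of each HL mouse with an LH mouse of another slide was 0.12 to 0.418. For HL replicate 5 it was above that of its own slide (0.395 against 0.359). The number of arrays limits the precision.

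Each gene was represented by its probe with the highest mean Cy3 signal, well above background on at least 4 arrays of each group. Named genes are the 12 per direction with the lowest unadjusted p, the 2 members with the lowest p of each of 40 gene lists, the 3 per direction with the lowest p for the tissue difference, and the sex-linked and study-named genes; a few of these are not reported here. The members and lists were chosen with earlier results of these data known. The tissue difference used the 24 HL and LH arrays with slide as a block. The fits were tested on simulated data. Alternatives changed the block, background, scaling, channel, filter, variance model or mice, 1 at a time.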

Additional observations from a re-analysis of the deposited data

Results flagged for a closer look

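In a group of 6 mice, a mouse was singled out when its gap to the next was, as a share of the group's range, over Dixon's 95% critical value. Of 313 groups of named genes and list scores, 30 (9.58%) met this, where chance gives about 1 in 20. HL replicate 5 accounted for 10 and HL replicate 3 for 9, and many of these share genes.

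HL replicate 5 stood apart in *Xist* (2.38), *Eif2s3y* (-5.78), *Ddx3y* (-4.18), *Kdm5d* (-2.25) and *Uty* (-2.02), and so in the sex-linked score (-1.40). It also had the lowest *Ccl5* (-0.40) and *Nkg7* (-0.36), both T and NK cell genes, and the lowest T and NK cell score (-0.56) and interferon score (-1.01) of the HL mice.

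HL replicate 3 was lowest in *C1qc* (0.592), *Cdkn2d* (-0.0248) and *Spdef* (1.75) and highest in *Dusp16* (0.609), *Cdh17* (1.16) and *Sephs2* (-0.69). Its macrophage score (-0.291) and neuron score (-0.262) were the lowest and its colonocyte score (0.266) the highest of the HL mice. *Cdkn2d*, whose groups did not overlap, had this mouse at its low end.

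Single departures were those of *Elovl6* in HL replicate 6 (0.377), *Clock* in HL replicate 4 (-0.26), *Nup50* in LH replicate 5 (0.441) and *Tet3* in LH replicate 3 (0.414). Among scores they were the fat cell score of LH replicate 2 (-1.74), the enteroendocrine score of HL replicate 1 (0.0753), the selenocysteine synthesis score of LH replicate 5 (-0.11), the Nrf2 score of LH replicate 1 (-0.12), the xenobiotic score of LH replicate 6 (0.0513), and the pancreatic (0.303) and zinc (-0.24) scores of LH replicate 3.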

How the results depend on the processing

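No probe was called in any of 16 alternative settings or with any of the 12 mice left out. Among the settings, Aquantile scaling between arrays leaves the ratios as they are and gave the main values. A looser adjusted p with no minimum fold reused the main fit. Neither is a separate check. The 2694 probes at an unadjusted p under 0.05 became 1142 without the slide block and 639 at p under 0.01. With Feature Extraction's processed signals they became 5714, and with median centring in place of loess 4086. With 1 mouse left out they became 1598 (without HL replicate 3) to 3543 (without LH replicate 5), and 1679 without LH replicate 3. With the *Xist*-positive arrays left out they became 3751, with a lowest adjusted p of 0.11 (limma). With array position as a further block they became 3728, with a lowest adjusted p of 0.203 (limma). Of the 2694 probes 42.1% were higher in HL, but the share was 70.4% with median centring, 30.3% with processed signals and 53.4% with Cy3 alone. Median centring raised the median of all genes from -0.0121 to 0.0878 and turned *Trnau1ap* (0.0268), *Acta2* (0.00107), *Pdgfrb* (0.00426), *Pfdn1* (0.0287), *Alox5ap* (0.000700), *Cpa1* (0.00352), *Clock* (0.0967) and *Treh* (0.0433) to higher in HL; Cy3 alone turned *Pfdn1* (9.83e-05) and *Clock* (0.0304). *Xist* turned to -0.179 with processed signals and, with the *Xist*-positive arrays left out, *Xist* to -0.634 and *Mt1* to -0.00465. With 1 mouse left out *Xist* ran from -0.36 to 0.91, *Eif2s3y* from -1.30 to 0.0244, *Rps19* from -0.234 to 0.0039 and *Clock* from -0.0944 to 0.0302. The causes were not tested. The colon minus liver difference had 0 called probes in its 17 alternatives. In that fit each slide holds 1 HL and 1 LH array, so leaving out either mouse drops the comparison of that slide. Its 12 fits with 1 mouse left out thus amount to 6. Slides pair the mice by the labels; without the block 0 probes were called too.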
